A study of Mus musculus with 8 samples.

Results

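The 10 genes described here encode transcription factors that specify and maintain retinal ganglion cells, the neurons that carry the output of the retina to the brain along the optic nerve. They were taken by gene symbol as Pou4f1, Pou4f2, Pou4f3, Isl1, Isl2, Ebf1, Ebf2, Ebf3, Sox4 and Sox11, and all 10 were found among the 24942 genes listed. RNA was sequenced from ganglion cells of mice at postnatal day 8. The cells were purified by immunopanning, which captures them on a dish through an antibody to their surface, and their RNA was taken at once, without culture. There were 4 libraries from NPC1-deficient mice and 4 from wildtype littermates, with the strain field balb/cnctr-npc1m1n/j on every sample. NPC1 is a lysosomal membrane protein needed to move cholesterol out of lysosomes, and its deficiency underlies Niemann-Pick type C. The labels give no sex, no allele beyond the strain name, and no word on whether animals were pooled. The comparison asks how loss of NPC1 in the whole animal changed the RNA of this neuron.

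Ganglion cells are the first neurons to leave the retinal progenitor pool, and the basic helix-loop-helix factor Atoh7 makes progenitors competent for this fate. Pou4f2 (Brn3b) and Isl1 then act together as the core of the ganglion cell program, with Pou4f1 (Brn3a) and Pou4f3 (Brn3c) as later, overlapping relatives. Isl2 marks ganglion cells that project across the midline, EBF factors act in differentiation, and the SoxC factors Sox4 and Sox11 act early, between Atoh7 and Pou4f2. Isl1 is also made by bipolar cells and starburst amacrine cells, and Sox4 and Sox11 by other young retinal neurons.

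The DNA just upstream of 2 pairs of paralogs is shown because results below turn on them: Pou4f1 and Pou4f2 had the highest levels, and the ratio of Isl1 to Isl2 varied between libraries. Each window holds 250 bases before the RefSeq start on GRCm38.p6, the build also called mm10, and 8 of the 10 members had an entry. Capitals mark the E-box CANNTG, the site type of basic helix-loop-helix factors, and the EBF core CCCNNGGG, searched on both strands. The windows are chr14:104468000-104468249 (minus strand), chr8:78436648-78436897 (minus), chr13:116309689-116309938 (minus) and chr9:55540899-55541148 (plus), in the order printed. The Isl2 window lies inside the annotated gene, which begins at 55538672, and its place among exons and introns was not checked.
Pou4f1: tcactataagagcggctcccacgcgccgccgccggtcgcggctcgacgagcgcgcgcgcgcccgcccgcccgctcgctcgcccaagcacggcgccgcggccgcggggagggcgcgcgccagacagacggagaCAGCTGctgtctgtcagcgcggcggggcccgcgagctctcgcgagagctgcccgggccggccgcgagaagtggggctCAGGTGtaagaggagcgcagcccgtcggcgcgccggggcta
Pou4f2: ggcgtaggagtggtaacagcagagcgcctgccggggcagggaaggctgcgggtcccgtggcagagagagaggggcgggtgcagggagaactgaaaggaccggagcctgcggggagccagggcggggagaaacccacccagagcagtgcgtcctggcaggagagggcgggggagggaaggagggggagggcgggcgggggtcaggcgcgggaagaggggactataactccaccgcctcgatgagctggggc
Isl1: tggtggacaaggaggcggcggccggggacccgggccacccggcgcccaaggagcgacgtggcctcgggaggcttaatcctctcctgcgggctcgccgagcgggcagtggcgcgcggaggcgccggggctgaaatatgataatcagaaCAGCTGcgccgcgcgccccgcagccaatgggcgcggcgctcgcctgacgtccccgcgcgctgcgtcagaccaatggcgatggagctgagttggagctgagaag
Isl2: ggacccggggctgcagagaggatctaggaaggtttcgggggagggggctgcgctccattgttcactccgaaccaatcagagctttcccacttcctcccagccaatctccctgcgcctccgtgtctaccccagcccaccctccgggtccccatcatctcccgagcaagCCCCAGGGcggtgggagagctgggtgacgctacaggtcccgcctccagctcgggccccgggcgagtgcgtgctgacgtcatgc
The Pou4f1 window held 2 E-boxes and the Isl1 window held 1, while Pou4f2 and Isl2 held 0. Among all 32851 promoter windows of this length, 66.2% held an E-box. The EBF core was found once, in Isl2, and in 11.8% of all windows. The CCAAT box occurred 2 times in each Isl window and in 33.8% of all windows, and the GC box GGGCGG 5 times in Pou4f2, 2 times in Pou4f1, 1 time in Isl2, 0 times in Isl1 and in 32.7% of all windows. Isl2 also held TGACGTCA, the cyclic AMP response element, which 1.55% of all windows held. These matches describe letters in the windows and no binding was measured.

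All 10 members had a mean normalized read count of at least 10 and were tested. A normalized read count is the number of reads of a gene divided by a factor for the size of its library. Recovered reads per member and library ran from 126 for Sox11 to 12679 for Pou4f2, out of library totals of 33030175 to 44050118, so counting error was small for most members. The labels held a contradiction: titles and descriptions name the groups used here, while a characteristics field reads wildtype for the libraries numbered 1 and 2 and homozygous for those numbered 3 and 4, whatever the title. Npc1 followed the titles, with 787 ± 69.1 normalized reads (SD, n = 4) under the wildtype titles against 85.9 ± 35.96 (SD, n = 4) under the NPC1-deficient ones (exact two-sided permutation p = 0.0286, the smallest that 70 assignments allow). In NPC1-deficient 1 to 4 Npc1 read 140, 70, 68 and 66. Libraries 1 and 2 form one library set below and libraries 3 and 4 the other, and what the field records for them is not known. The labels do not say that each library is a different animal, and the p-values then reflect no more than the spread among these libraries, which may be technical.

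Per kilobase of exon, the members spanned a wide range of levels, led by Pou4f2, Pou4f1, Isl1, Pou4f3 and Isl2. Pou4f2 stood at a median of 3626 normalized reads per kilobase over the 8 libraries (range 3448 to 3983), above 96.3% of the 15235 tested genes with a known length. Pou4f1 followed at 2242 (2056 to 2545), and its range touched that of Isl1 at 1881 (1405 to 2143). Isl1, Pou4f3 at 1768 (1401 to 2010) and Isl2 at 1662 (1503 to 1782) overlapped across libraries and cannot be ordered. Ebf3 at 969 (899 to 1068), Ebf1 at 314 (259 to 359) and Sox4 at 141 (87.1 to 208) each stood apart from their neighbours. The lowest were Ebf2 at 43.97 (35.8 to 56.2) and Sox11 at 17.2 (14.2 to 27.7), against a median of 113 over all tested genes. Of the 10 members 6 lay above at least 85.7% of genes, and Sox11 lay above 21.8%. Lengths are unions of all annotated exons, so a gene with many unused isoforms is set too low.

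**Figure D1:**
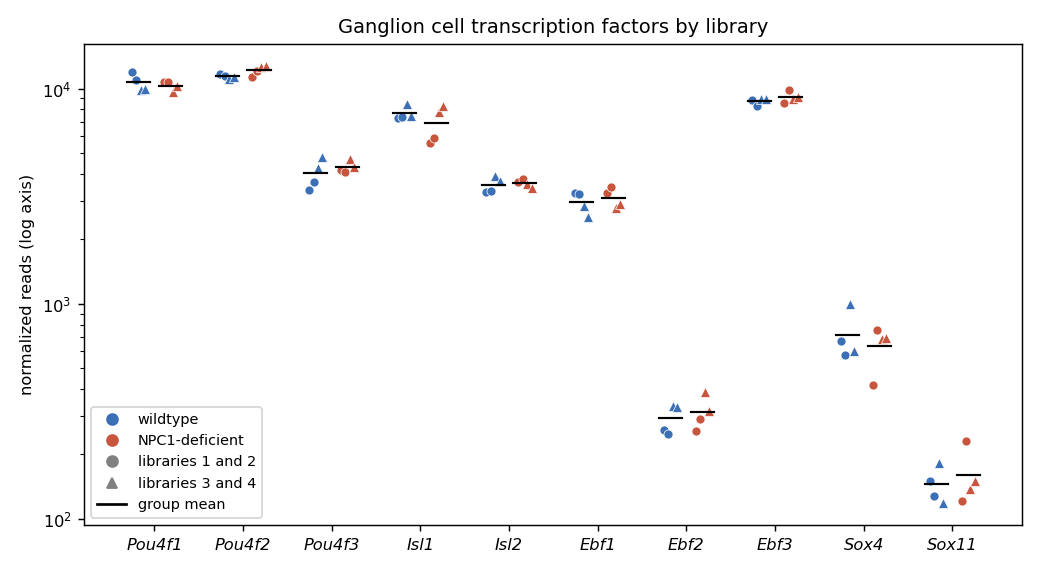
Normalized reads (log axis) of each of the 10 factors in each library, with wildtype in blue, NPC1-deficient in red, circles for libraries 1 and 2, triangles for libraries 3 and 4, and black bars for group means. The 4 libraries of one genotype overlap those of the other for every factor, and Isl1 is lowest in the NPC1-deficient libraries 1 and 2.

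No member passed the test between NPC1-deficient and wildtype cells, and the groups overlapped for all 10. With limma at an adjusted p of 0.05 over all genes, 0 of 10 members were called, against 0.104% of the 15386 genes tested. At an unadjusted p under 0.05 the count was also 0, against 6.76% of all genes, and on recovered reads edgeR called 0 members (0.104% of genes) and DESeq2 0 (1.6% of genes). In single directions limma called 0.039% of genes higher and 0.065% lower. With the groups of the characteristics field in place of the titles, 1 member was called, Ebf1, against 1.76% of genes. That grouping is the split into library sets, so it and the library set call of Ebf1 below are not separate results. Between genotypes, groups failed to overlap for 0 members and for 4.27% of all genes. Of the 10 log2 differences 7 were positive and 3 negative, with a median of 0.06, beside a median of 0.005 over all genes. For 8 members the 95% interval lay within 0.5 of zero on the log2 scale, the exceptions being Sox4 and Sox11. In bulk RNA, fewer cells of a type and less RNA per cell cannot be told apart.

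The Pou4f genes, POU homeodomain factors that hold the ganglion cell fate and shape its axons and dendrites, were near even between genotypes. Pou4f2 (ENSMUSG00000031688, chromosome 8, 78433010 to 78436645, minus strand, mm10) read, in library order 1 to 4, 11744, 11492, 11048 and 11375 in wildtype. The NPC1-deficient libraries in the same order read 11296, 12140, 12568 and 12762. NPC1-deficient 2, 3 and 4 stood above every wildtype library, and NPC1-deficient 1 stood among them. The log2 difference was 0.09 (SE 0.05, 95% interval -0.014 to 0.20, limma adjusted p = 0.824), the smallest p of any member. Pou4f1 (ENSMUSG00000048349, chromosome 14, 104461676 to 104467999, minus strand) read 11891, 11022, 9859 and 9943 in wildtype and 10714, 10749, 9608 and 10231 in NPC1-deficient libraries. Its highest value was wildtype 1 and its lowest NPC1-deficient 3, with a log2 difference of -0.05 (SE 0.07, interval -0.19 to 0.098, limma adjusted p = 0.995). Pou4f3 (ENSMUSG00000024497, chromosome 18, 42394539 to 42397249, plus strand) read 3361, 3667, 4280 and 4823 in wildtype and 4203, 4092, 4689 and 4345 in NPC1-deficient libraries. Wildtype libraries held both its lowest and its highest value. The log2 difference was 0.12 (SE 0.10, interval -0.095 to 0.33, limma adjusted p = 0.966). Of the 36-base words in transcripts of the 3 genes, between 0.254% and 1.61% also occurred in another member. How many reads were assigned to the wrong paralog was not measured.

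The LIM homeodomain genes Isl1 and Isl2 did not pass either. Isl1, the partner of Pou4f2 in ganglion cell specification (ENSMUSG00000042258, chromosome 13, 116298281 to 116309689, minus strand), read 7315, 7396, 8484 and 7500 in wildtype. In NPC1-deficient libraries it read 5561, 5870, 7815 and 8313. NPC1-deficient 1 and 2 were the lowest of all 8, while NPC1-deficient 3 and 4 lay within the wildtype range. The log2 difference was -0.17 (SE 0.12, interval -0.43 to 0.078, limma adjusted p = 0.924). Isl2, a factor of contralaterally projecting ganglion cells (ENSMUSG00000032318, chromosome 9, 55538672 to 55546180, plus strand), read 3296, 3347, 3907 and 3730 in wildtype. It read 3686, 3793, 3602 and 3458 in NPC1-deficient libraries, all inside the wildtype range. Its log2 difference was 0.03 (SE 0.06, interval -0.11 to 0.17, limma adjusted p = 0.995).

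Within libraries 1 and 2 alone, Isl1 was lower in NPC1-deficient cells by a log2 difference of -0.36 (SE 0.07, limma adjusted p = 0.0474, 2 libraries per genotype). It was the only member called there, 1 of 10, against 0.371% of 15370 genes. Within libraries 3 and 4 its log2 difference was 0.015 (SE 0.07, limma adjusted p = 0.957), where 0 members and 2.18% of genes were called. The difference between these 2 effects was 0.38 (SE 0.10, interval 0.17 to 0.59), with an unadjusted limma p of 0.00194 and an adjusted p of 0.162 over all genes. Isl2 ran the other way, with 0.17 within libraries 1 and 2 and -0.11 within libraries 3 and 4, a difference of -0.28 (SE 0.08, limma adjusted p = 0.201). As a result the ratio of Isl1 to Isl2 per kilobase was 0.836 and 0.857 in NPC1-deficient 1 and 2, and 1.11 to 1.33 in the other 6 libraries. Over the 10 members, limma and edgeR each called 0 differences between sets in the genotype effect, against 0.078% of genes, and 3 members had an unadjusted limma p under 0.05, against 13.4% of genes. The third was Pou4f3, with a genotype difference of 0.24 in the first set and -0.0095 in the second. Libraries of one genotype were also compared on recovered reads over genes, by a chi-square per degree of freedom. NPC1-deficient 2 stood at 43.9, 50.3 and 44.7 from NPC1-deficient 1, 3 and 4. NPC1-deficient 1 stood at 21.3 and 21.6 from NPC1-deficient 3 and 4, which stood at 4.27 from each other. Wildtype pairs lay between 7.61 and 26.4. The part of this in the Isl1 values was not tested.

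Of the other cells that make Isl1, the summed starburst amacrine markers were lowest in the 2 libraries where Isl1 was lowest, while Chat alone and the summed bipolar markers were not. The 5 starburst markers found (Chat, Slc5a7, Sox2, Megf10 and Fezf1) summed to 456 and 630 normalized reads in NPC1-deficient 1 and 2 and to 943 and 1328 in NPC1-deficient 3 and 4. In wildtype 1 to 4 the same sum was 2215, 1932, 2939 and 1326. Chat, which makes acetylcholine and defines this cell, stood at 11.8, 8.01, 11.99 and 6.20 in NPC1-deficient 1 to 4 and at 39.9, 25.2, 71.8 and 8.97 in wildtype 1 to 4, so its lowest library was NPC1-deficient 4. Sums for cells other than starburst cells were also lowest in NPC1-deficient 1 and 2. Amacrine markers without Pax6 summed to 1407 and 1564 there and to 1712 to 4696 elsewhere. The horizontal cell sums were 1067 and 997, the progenitor sums 470 and 621 and the endothelial sums 173 and 207, each below the other 6 libraries. Rod, cone, Müller glia, astrocyte, microglial and pericyte sums did not have these 2 libraries as their lowest. Some lists share genes, Sox2 being a starburst and a progenitor marker and Tfap2b an amacrine and a horizontal cell marker, so their sums are not independent. The 8 bipolar markers other than Isl1 summed to 1166 and 1016 in NPC1-deficient 1 and 2, above the 813 and 802 of NPC1-deficient 3 and 4. Wildtype 4 and NPC1-deficient 4 had nearly the same starburst sum, with Isl1 at 7500 and 8313. The part of these cells in the Isl1 values was not tested.

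**Figure D2:**
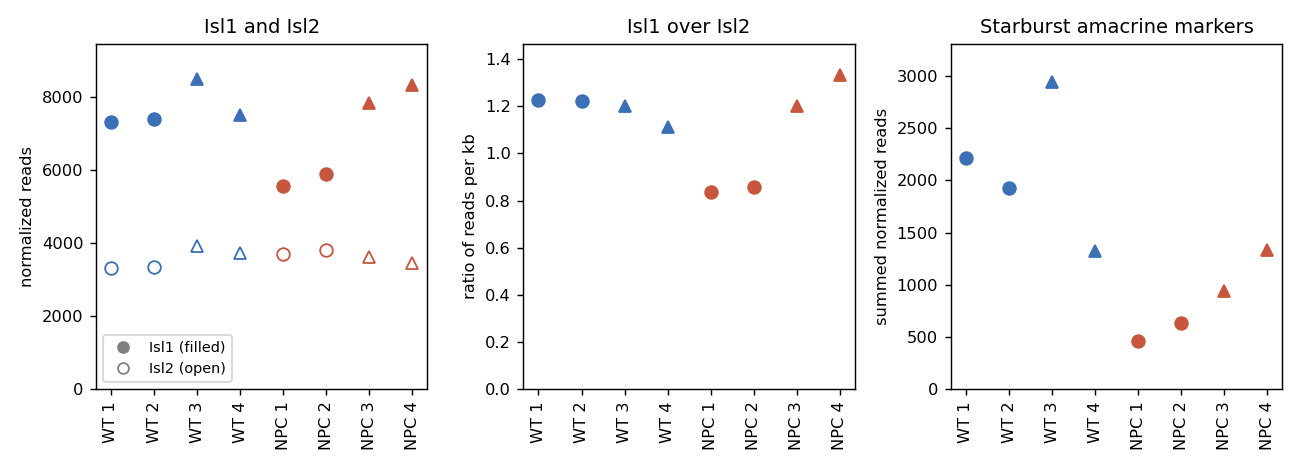
Left, normalized reads of Isl1 (filled) and Isl2 (open) in wildtype (WT, blue) and NPC1-deficient (NPC, red) libraries 1 to 4; centre, the ratio of Isl1 to Isl2 in reads per kilobase; right, summed normalized reads of the 5 starburst amacrine markers. Circles are libraries 1 and 2 and triangles libraries 3 and 4. NPC1-deficient 1 and 2 are lowest for Isl1, for the ratio (0.836 and 0.857) and for the marker sum (456 and 630). The amacrine sum without Pax6 and the horizontal, progenitor and endothelial sums, not plotted, are also lowest in these libraries. Also not plotted are Chat, lowest in NPC1-deficient 4, and the bipolar sum without Isl1, lowest in NPC1-deficient 3 and 4.

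The EBF genes encode helix-loop-helix factors with a zinc-coordinating DNA-binding domain, and Ebf3 supplied most of their reads. Ebf3 (ENSMUSG00000010476, chromosome 7, 137193673 to 137314445, minus strand) read 8837, 8293, 8937 and 8976 in wildtype and 8547, 9854, 8937 and 9119 in NPC1-deficient libraries. Apart from NPC1-deficient 2, the highest, the libraries lay close together, with a log2 difference of 0.06 (SE 0.05, interval -0.060 to 0.17, limma adjusted p = 0.983). Ebf1 (ENSMUSG00000057098, chromosome 11, 44617317 to 45008091, plus strand) read 3257, 3223, 2845 and 2524 in wildtype and 3263, 3503, 2790 and 2901 in NPC1-deficient libraries. In both genotypes libraries 1 and 2 were the higher ones, and the genotype difference was 0.07 (SE 0.09, interval -0.13 to 0.27, limma adjusted p = 0.995). Ebf2 (ENSMUSG00000022053, chromosome 14, 67233292 to 67430918, plus strand) was low, at 258, 248, 334 and 333 in wildtype and 255, 291, 389 and 318 in NPC1-deficient libraries. Here libraries 3 and 4 were the higher ones, and the genotype difference was 0.09 (SE 0.14, interval -0.22 to 0.41, limma adjusted p = 0.995). Antisense genes share 6.12% of the exonic length of Ebf2 (Gm10860) and 3.85% of that of Ebf3 (Gm45278), and these reads cannot be assigned to a strand.

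The SoxC genes, high-mobility-group factors of young neurons, were the most variable members. Sox4 (ENSMUSG00000076431, chromosome 13, 28948919 to 28953713, minus strand) read 671, 578, 998 and 602 in wildtype and 417, 753, 682 and 691 in NPC1-deficient libraries. Wildtype 3 was the highest and NPC1-deficient 1 the lowest, 2.39-fold apart, and the other 6 lay between 578 and 753. The log2 difference was -0.16 (SE 0.20, interval -0.59 to 0.26, limma adjusted p = 0.995). Reads of Sox4 are uncertain, since 54.6% of its exonic length is shared with Gm26735, a long noncoding RNA gene on the opposite strand. Sox11 (ENSMUSG00000063632, chromosome 12, 27334264 to 27342574, minus strand) read 149, 128, 183 and 118 in wildtype and 121, 230, 137 and 150 in NPC1-deficient libraries. NPC1-deficient 2 was highest, the remaining 7 overlapped between genotypes, and the log2 difference was 0.12 (SE 0.20, interval -0.31 to 0.55, limma adjusted p = 0.995). For these 2 genes the intervals are the widest of the 10.

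**Figure D3:**
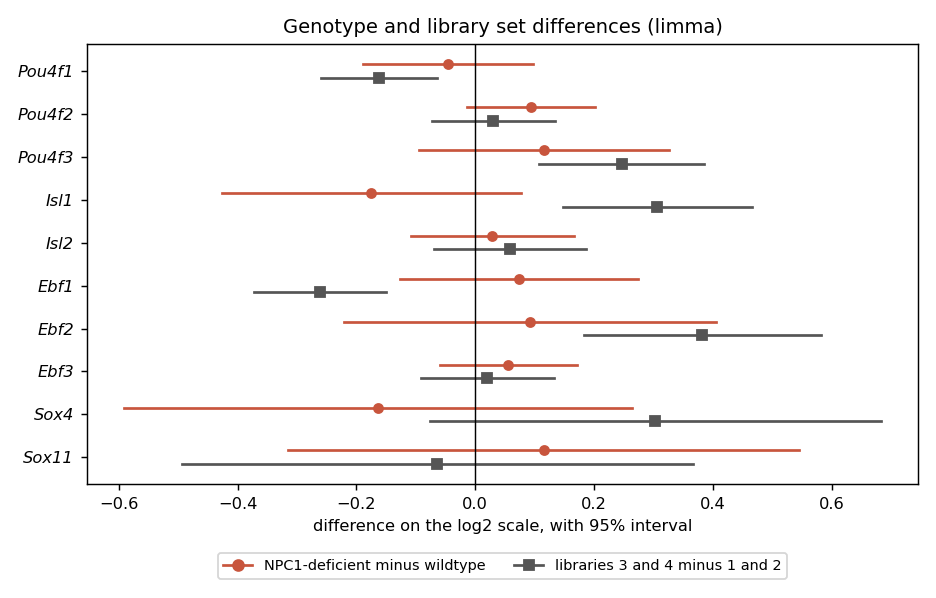
Differences on the log2 scale for each factor with 95% intervals from limma, for NPC1-deficient minus wildtype (red circles) and for libraries 3 and 4 minus libraries 1 and 2 (grey squares), 4 libraries on each side. Every genotype interval includes zero, while the library set intervals of Pou4f1, Pou4f3, Isl1, Ebf1 and Ebf2 do not.

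The difference between library sets was larger in size than that between genotypes for 7 of 10 members, and for 59.5% of all genes. In a limma fit with genotype and library set, Ebf1 was lower in libraries 3 and 4, at 2765 ± 167 (SD, n = 4) against 3312 ± 129 (SD, n = 4) normalized reads. The log2 difference was -0.26 (SE 0.05, interval -0.37 to -0.15, limma adjusted p = 0.0245), and edgeR gave an adjusted p of 0.0227 and called 2.14% of genes. Ebf1 was the 1 member called, against 2.18% of genes, and it did not pass without wildtype 1 (limma adjusted p = 0.0771), wildtype 4 (0.0907), NPC1-deficient 2 (0.0784), NPC1-deficient 3 (0.131) or NPC1-deficient 4 (0.0606). Another 4 members had an unadjusted p under 0.05 without passing adjustment, which makes 5 of 10 against 17.7% of genes. Pou4f1 was lower in libraries 3 and 4 by a log2 difference of -0.16 (limma adjusted p = 0.0848). Isl1 was higher there by 0.31 (0.0530), Ebf2 by 0.38 (0.0535) and Pou4f3 by 0.25 (0.0687), each with its limma adjusted p in parentheses. Isl1 passed without wildtype 2 (limma adjusted p = 0.0444) or wildtype 4 (0.0275). For these 5 members no library of one set overlapped the other, against 9.52% of all genes. The median size of the set difference was 0.20 over the members and 0.10 over all genes.

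The remaining members, Pou4f2 (0.03), Isl2 (0.06), Ebf3 (0.02), Sox4 (0.30) and Sox11 (-0.06), overlapped between library sets. Summed ganglion cell markers ran from 379669 to 432880 in libraries 1 and 2 and from 381744 to 406762 in libraries 3 and 4, so they did not follow the sets. The 10 rod markers overlapped too, at 1620 to 6999.9 against 1830 to 4118. The 6 cone markers, of which 3 had a mean of at least 10, did not overlap, at 76.0 to 210 in libraries 1 and 2 and 42.2 to 71.8 in libraries 3 and 4. The sums of all other cell type lists overlapped between sets. The part of other cells in the set differences was not tested. This reading of the library set term was added after the data were seen.

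Within families, the order of the members in reads per kilobase was the same in every library except for the Isl pair. In reads per kilobase, Pou4f2 made up 46.2% to 49.9% of the Pou4f family, Pou4f1 25.9% to 33.4% and Pou4f3 18.4% to 26.1%. The Pou4f1 share was 29.5% to 33.4% in libraries 1 and 2 and 25.9% to 28.7% in libraries 3 and 4. Isl1 made up 52.7% to 57.1% of the Isl family except in NPC1-deficient 1 and 2, where it was 45.5% and 46.2%. Ebf3 made up 71.1% to 76.0% of the EBF family, Ebf1 20.2% to 26.1% and Ebf2 2.80% to 4.29%. Sox4 made up 85.0% to 90.4% of the SoxC pair, with the lowest shares in NPC1-deficient 1 and 2. Within groups, the median coefficient of variation of the members was 10.4% in wildtype and 8.28% in NPC1-deficient libraries, beside 8.60% and 9.98% over all tested genes. The steadiest members were Pou4f2 at 2.53% and Ebf3 at 3.62% in wildtype, and the least steady were Sox4 at 27.3% in wildtype and Sox11 at 30.5% in NPC1-deficient libraries.

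**Figure D4:**
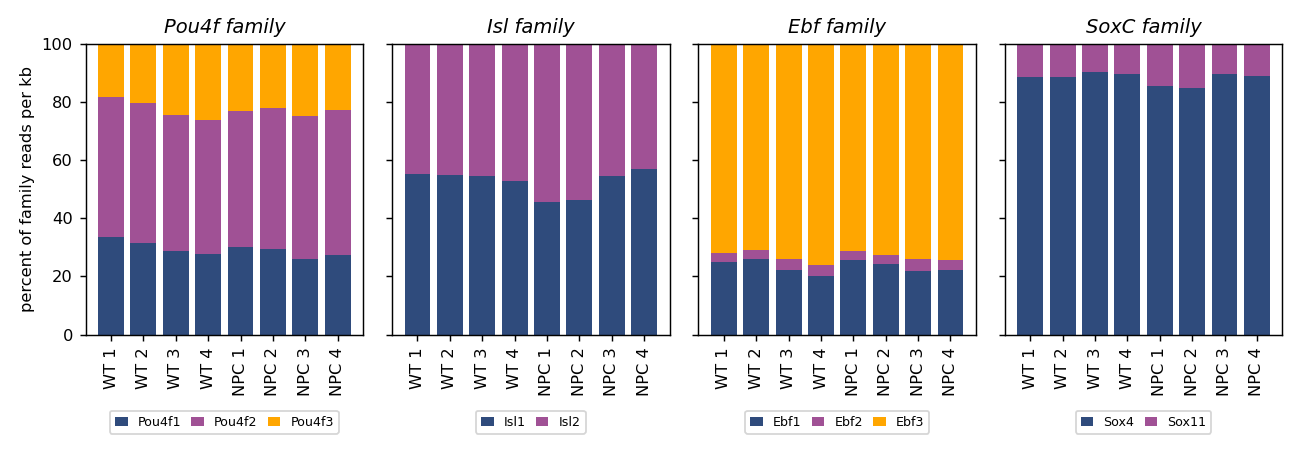
Percent of the family's reads per kilobase taken by each member in wildtype (WT) and NPC1-deficient (NPC) libraries 1 to 4, for the Pou4f, Isl, Ebf and SoxC families. On this scale the order within each family is the same in every library except for the Isl pair. There Isl2 exceeds Isl1 in NPC1-deficient 1 and 2, which it does not in reads without length correction.

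Among genes connected to these factors, limma, edgeR and DESeq2 called 0. The counts at an unadjusted limma p under 0.05 stand beside 6.76% of all genes, and those without overlap between genotypes beside 4.27%. Of 17 other POU, LIM homeodomain, EBF and SoxC genes 11 were tested, with 4 higher, 7 lower, a median of -0.03, 2 at an unadjusted limma p under 0.05 and 1 without overlap. The LIM homeodomain genes Lhx9 and Lhx3 had log2 differences of -0.90 and -1.24, from means of 50.5 and 16.3 in wildtype. Pou2f1 and Lhx4 had -0.21 and -0.58. Of 12 upstream factors and binding partners 11 were tested, with 8 higher, 3 lower, a median of 0.01, 2 at an unadjusted p under 0.05 and 2 without overlap. Neurog2, a proneural factor of progenitors, stood at 17.2 to 90.5 with NPC1 deficiency and 132 to 289 without (log2 difference -2.01, SE 0.46, limma adjusted p = 0.113). Its groups did not overlap, and NPC1-deficient 1 and 2, low in Isl1, were lowest here too at 17.2 and 28.0. Lmo4, a LIM-only protein that competes for LIM cofactors, had -0.13, the neuronal repressor gene Rest 0.27, and Pax6, needed for progenitor competence, 0.03.

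Other transcription factors of ganglion cell subtypes were tested for 26 of 27 genes, with 15 higher, 11 lower, a median of 0.07, 2 at an unadjusted limma p under 0.05 and 1 without overlap. Zic2, the factor of ipsilaterally projecting ganglion cells, had a log2 difference of 0.32 and Eomes, a T-box factor of intrinsically photosensitive and other subtypes, 0.19. Tfap2d had 0.14 and Satb1, a chromatin organizer of direction-selective cells, 0.10. Effector genes lost with, or placed downstream of, the members were tested for 23 of 23, with 19 higher, 4 lower, a median of 0.06, 3 at an unadjusted p under 0.05 and 2 without overlap. Shh, the signal that ganglion cells send to progenitors, stood at 582 to 637 with NPC1 deficiency and 508 to 555 without, with no overlap (log2 difference 0.22, SE 0.07, limma adjusted p = 0.312). The axonal adhesion gene Cntn2 had 0.25, the growth-associated tubulin regulator Stmn2 0.12 and the semaphorin receptor gene Plxna1 0.16.

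Ganglion cell markers were high in every library, and most markers of other cells had negative log2 differences. All 8 ganglion cell markers had a positive log2 difference with a median of 0.06, and Tubb3 and Sncg, the highest, averaged 142351 and 67761 in wildtype. Of the other lists, all tested members were negative for rods (10 of 10, median -1.04), cones (3, -0.37), bipolar cells (9 with Isl1 and Lhx4, -0.58), starburst cells (5, -1.68), horizontal cells (3, -1.002), microglia (10, -1.52) and endothelium (3, -0.21). Amacrine markers had 7 of 8 negative (median -1.23) and Müller glia 5 of 6 (-0.29). Astrocytes (3 tested, 0.06), pericytes (3, 0.56) and cycling or progenitor cells (4, -0.08) were mixed. Limma and edgeR each called 1 horizontal cell and 1 Müller glia marker, which in limma were Calb1 and Apoe, and 0 in the other lists. DESeq2 called 6 microglial, 3 amacrine, 3 horizontal, 2 rod, 2 starburst, 2 Müller glia and 1 endothelial marker. At an unadjusted limma p under 0.05 were 10 microglial, 8 rod, 5 amacrine, 5 starburst, 4 Müller glia, 3 horizontal, 3 bipolar, 1 endothelial, 1 pericyte and 1 progenitor marker. No list had a marker at 0 in every library. The summed rod level was 1620 to 2304 with NPC1 deficiency and 2685 to 6999.9 without, and the microglial sum was 1156 to 2510 against 2155 to 11184. Their part in the members' values was not tested.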

How the data were processed

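Per the labels' protocols, libraries were made with a TruSeq v2 kit, which keeps no strand. The submitters' processing notes name the build mm10 and, without roles, HTSeq 0.5.4p3, CASAVA 1.8.2 and DESeq2 1.0.19. Aligner and annotation: not given in the sources used here. Per gene and library, the authors deposited a normalized signal, a read count divided by 1 size factor per library, as the deposited values themselves show. All 199536 values were whole multiples of their library's smallest step within 1e-06 of a read, so reads could be recovered.

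Libraries were grouped by title. Genes with a mean of at least 10 were tested (15386, with 9556 removed) on log2(value + 1), which understates folds of low genes. Genotypes were compared by limma 3.58.1 (R 4.3.3) with its trend option, no covariate and Benjamini-Hochberg adjustment over all genes. Further fits added the library set or its interaction with genotype. EdgeR 4.0.16 and DESeq2 1.42.0 were run on recovered reads as alternatives, beside other pseudocounts (0.5 and 5), filters (none and 50), quantile and upper-quartile scaling, robust moderation, a replicate block, either library set by itself, grouping by the characteristics field, and dropping libraries in turn. The limma fit was tested on simulated data, with spread set by a formula and not taken from these libraries. It recovered 34% of changes of 0.35 on the log2 scale, 72% of 0.5, 90% of 1 and 100% of 2. Of 158 calls, 10 were of unchanged genes. The simulation changed 50 genes at each size and held no library sets. Its 158 calls, against 16 in the real genotype comparison, made the adjusted threshold easier to pass. The recovery rates therefore do not carry over to the members. Exonic lengths came from GENCODE M21, which held 98.1% of the identifiers. All intervals given are 95% intervals of the limma fits and reflect the spread among libraries.

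The members and lists were chosen with earlier results of these data known. Named besides the members are Npc1, the 4 genes of each connected list with the smallest p, and any called. The rule also allowed up to 2 of the highest markers of each cell type list, and only those of ganglion cells are given with their levels. Chat, Apoe, the marker sums beside Isl1 and the test between library sets were chosen after values were seen.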

Additional observations from a re-analysis of the deposited data

Results flagged for a closer look

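Isl1 in wildtype 3, at 8484 normalized reads, stood far from the other wildtype libraries, which lay between 7315 and 7500. Of 20 groups of 4 libraries examined, 1 was marked in this way, and chance marks about 1 in 20. Wildtype 3 also had the highest starburst amacrine sum (2939), Neurog2 (289) and Sox4 (998) of all libraries. It was highest too for the amacrine sum without Pax6 (4696) and the horizontal cell sum (3065). Its bipolar sum without Isl1 was 1295, below the 1519 of wildtype 1. The part of other cells in this value was not tested.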

How the results depend on the processing

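No member was called under 20 of 22 alternatives. The exceptions were libraries 1 and 2 alone (1, Isl1 at -0.36) and the groups of the characteristics field, which are the library sets (1, Ebf1). Under that field Npc1 differed by -0.18 (limma adjusted p = 0.951), Isl1 by 0.31, Ebf1 by -0.26, Sox4 by 0.30, Sox11 by -0.064 and Pou4f1 by -0.16. Within libraries 3 and 4 alone the difference was 0.0020 for Pou4f1, -0.0095 for Pou4f3, 0.015 for Isl1, -0.11 for Isl2 and -0.037 for Sox11. Pou4f2 stood at 0.18 there (SE 0.05, limma adjusted p = 0.136) and at 0.011 within libraries 1 and 2. The remaining members stood within libraries 3 and 4 at 0.086 (Ebf1), 0.078 (Ebf2), 0.011 (Ebf3) and -0.18 (Sox4). The cause was not tested. Leaving out single libraries moved the log2 difference of Pou4f1 between -0.083 and 0.0075, Pou4f2 between 0.071 and 0.13, Pou4f3 between 0.032 and 0.21, Isl1 between -0.27 and -0.079 and Isl2 between -0.0084 and 0.073. For Ebf1 the range was -0.00052 to 0.12, for Ebf2 -0.017 to 0.19, for Ebf3 0.018 to 0.086, for Sox4 -0.26 to 0.027 and for Sox11 -0.075 to 0.23. Quantile scaling shifted no member by more than 0.048.

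The number of genes called (16) was 10 at a minimum of 50, 99 with library set as a term, 57 within libraries 1 and 2, 335 within libraries 3 and 4, 271 with the field's groups and 246 with DESeq2. It ranged from 2 to 144 without single libraries and moved over 1.5 times without each of the 8. The replicate block gave 34 genes and no member (lowest limma adjusted p = 0.768). Same-numbered libraries did not deviate together (correlations -0.066 to -0.017), and 0 of 8 libraries correlated best with their own number. The numbers thus gave no sign of pairing, but this check cannot exclude a shared litter or preparation. Between library sets, leaving out single libraries gave 0 to 2 members, and -0.29 to -0.22 for Ebf1. With no length correction Pou4f2 made up 44.5%, Isl1 66.6% and Sox4 81.4% of their families, against 47.97%, 52.6% and 88.3%, by construction. The order also depended on length. Without the correction Isl1 exceeded Isl2 in every library (60.1% to 70.6%), and Pou4f1 exceeded Pou4f2 in wildtype 1 (44.0% against 43.5%). The intervals of Sox4 and Sox11 were the widest of the 10.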
